A study of Mus musculus with 30 samples.

Results

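Transcripts of cytochrome P450 enzymes of families 1 to 3 were followed in the livers of mice given cisplatin, CRS or neither, with or without infused acyl-CoA binding protein. The genes were taken by symbol, as every gene named Cyp followed by 1, 2 or 3, a subfamily letter and a number. The rule found 58 of the 48440 genes in the count table, in 16 subfamilies, and 46 of them had enough reads to be tested. All mice were wild-type C57BL/6 J females that received an ALZET osmotic pump at 8 weeks of age, and every group therefore carried a pump. The pump released either ACBP (the acyl-CoA binding protein, encoded by Dbi), loaded at 2.5 mg/mL, or PBS. Anorexia was then induced with CDDP (cisplatin, a platinum drug that crosslinks DNA) 72 hours after the pump, or with CRS, 48 hours after the pump. The labels do not spell out CRS, which is read here as restraint stress. The 6 groups held 5 liver libraries each and are called CDDP+ACBP, CDDP, CRS+ACBP, CRS, ACBP and PBS. None of these groups was kept on less food without CDDP or CRS, and the sources used here do not give the time of tissue collection.

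Enzymes of families 1 to 3 sit in the endoplasmic reticulum of hepatocytes and use haem, oxygen and electrons from the reductase Por to oxidise drugs, steroids, bile acids and fatty acids. Many are induced through the receptors AhR (Cyp1a and Cyp1b), CAR (Cyp2b and Cyp2c) and PXR (Cyp3a), and many lie mainly around the central vein. In mice several members are made mostly by females or mostly by males, a pattern set by growth hormone.

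Depth and composition are given once here. Between 13957380 and 18479134 reads per library fell on genes. Levels of a gene are given as CPM, its counts scaled to TMM-adjusted library size, and levels compared between genes as RPKM, the same per length of exon. The labels do not state that libraries of a group came from separate animals, so the p-values below measure the spread between these libraries. The CDDP libraries differed from PBS libraries in more than the P450 genes. Cdkn1a, a cell cycle inhibitor induced by DNA damage, was at 5.12 to 63.2 CPM in CDDP+ACBP, 154 to 456 CPM in CDDP, 1.81 to 10.3 CPM in ACBP and 0.688 to 6.46 CPM in PBS livers. CDDP+ACBP replicate 4, at 5.12 CPM, lay inside the range of ACBP livers. Mitochondrial genes took 5.43 to 12.6%, 2.74 to 3.81%, 8.296 to 11.7% and 9.24 to 13.5% of reads on genes in the same groups. Reads that mapped to several places made up 8.02 to 11.98%, 6.22 to 7.32%, 10.4 to 11.99% and 11.3 to 12.3% of all reads there, and such reads are not counted for any gene. The mean log2 level (CPM plus 0.1) of skeletal muscle markers was over 6, a limit set after the values were seen, in 6 libraries (CDDP+ACBP replicate 2, CRS+ACBP replicates 3 and 4, CRS replicate 1, ACBP replicate 2 and PBS replicate 2). It was 3.37 to 5.01 in 7 more (CDDP+ACBP replicate 3, CDDP replicates 1 and 5, CRS+ACBP replicates 1 and 2, CRS replicate 4 and PBS replicate 3) and at most 2.17 in the other 17. Brain transcripts were abundant in ACBP replicate 4. The TMM factor of CDDP replicate 5 was 0.701, against 0.920 to 1.19 in the other 29 libraries, so its CPM values are 1.43 times those without the factor.

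Promoter sequence is shown for 3 members with a called response and for a closely related pair of which 1 was called; for Cyp2c44, the member with the lowest log2 fold change with CDDP, no promoter was at hand. The 250 bases before the transcription start are given 5′ to 3′ in the gene's direction, from RefSeq (GRCm38.p6), and capitals in the first set mark the motif matches described with the promoters further on. Cyp2a22 is shown because it was the member called in both the CDDP and the CRS comparison with PBS (chr7:26939387-26939636, - strand). Cyp2b13 is shown as a female-predominant member that was lower with CDDP (chr7:26061245-26061494, + strand), and Cyp2d9 as the male-predominant member that was higher (chr15:82452127-82452376, + strand).
Cyp2a22: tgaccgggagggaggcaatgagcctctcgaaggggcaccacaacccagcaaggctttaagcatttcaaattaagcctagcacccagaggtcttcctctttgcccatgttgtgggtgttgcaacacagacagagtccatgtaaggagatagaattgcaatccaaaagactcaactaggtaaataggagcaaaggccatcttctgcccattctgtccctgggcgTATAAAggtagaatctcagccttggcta
Cyp2b13: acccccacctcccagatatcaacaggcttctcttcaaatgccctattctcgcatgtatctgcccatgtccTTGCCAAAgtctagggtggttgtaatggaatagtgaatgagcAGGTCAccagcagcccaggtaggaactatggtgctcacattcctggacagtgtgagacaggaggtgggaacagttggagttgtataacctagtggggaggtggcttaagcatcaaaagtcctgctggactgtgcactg
Cyp2d9: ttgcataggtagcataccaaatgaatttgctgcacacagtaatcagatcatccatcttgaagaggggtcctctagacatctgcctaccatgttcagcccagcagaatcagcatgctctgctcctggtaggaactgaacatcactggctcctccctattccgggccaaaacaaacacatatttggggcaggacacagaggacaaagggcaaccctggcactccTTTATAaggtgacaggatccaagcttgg

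Cyp2a4 (chr7:26306942-26307191, + strand) and Cyp2a5 (chr7:26835089-26835338, + strand) are near copies, and capitals mark the 4 bases at which the aligned 249 bases of their promoters differ (98.4% identity). Cyp2a4 was called lower in CDDP than in PBS livers and Cyp2a5 was not called.
Cyp2a4: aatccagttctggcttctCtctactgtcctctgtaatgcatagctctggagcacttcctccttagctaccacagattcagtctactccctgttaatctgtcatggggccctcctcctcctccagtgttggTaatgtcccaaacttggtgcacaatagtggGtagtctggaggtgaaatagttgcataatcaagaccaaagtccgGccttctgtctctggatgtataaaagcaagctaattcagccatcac
Cyp2a5: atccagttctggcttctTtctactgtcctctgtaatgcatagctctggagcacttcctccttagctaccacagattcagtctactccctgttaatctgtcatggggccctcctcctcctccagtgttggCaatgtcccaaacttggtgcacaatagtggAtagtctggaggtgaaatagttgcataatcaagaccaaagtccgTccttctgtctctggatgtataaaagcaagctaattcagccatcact

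All members were mapped by Ensembl identifier to GENCODE vM21 (mm10). The Cyp2a, Cyp2b, Cyp2e, Cyp2f, Cyp2g, Cyp2r, Cyp2s and Cyp2t genes, 15 in all, lie on chromosome 7, the Cyp2c genes on chromosome 19, the Cyp2d genes on chromosome 15, the Cyp3a genes on chromosome 5, the Cyp2j genes on chromosome 4 and the Cyp1a genes on chromosome 9. Because paralogues share sequence, reads can be lost or split between copies. In 24 of the 46 tested members over 90% of the 50-base windows of their transcripts occurred in no transcript of another gene, and in Cyp2c40, Cyp2c67 and Cyp2c69 under 50% were (39.7%, 47.2% and 45.7%), so values of these 3 genes are uncertain. In 11 tested members some exon bases also belong to another annotated gene, as in Cyp2t4 (Egln2), Cyp2u1 (4930534D22Rik), Cyp2f2 (Gm15883) and Cyp2a4 (Gm42375), each on the opposite strand, and such reads cannot be told apart where strand was not used in the counting. The 12 members not tested had at most 145 reads each over all 30 libraries. They were Cyp2b19, Cyp2b23, Cyp2c65, Cyp2c66, Cyp2d34, Cyp2j7, Cyp2j8, Cyp2j11, Cyp2j12, Cyp2j13, Cyp2w1 and Cyp3a57, and Cyp2j7 and Cyp2j11 had 0 reads in every library.

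Per exon length, Cyp2e1, which oxidises ethanol and acetaminophen, had the highest mean level of the tested members in every group: 1259 ± 559.9 RPKM in CDDP+ACBP, 1307 ± 377 in CDDP, 1506 ± 351 in CRS+ACBP, 1585 ± 372 in CRS, 1343 ± 394 in ACBP and 1296 ± 411 in PBS livers (SD, n = 5 each). In PBS livers it was followed by Cyp2d26 (659 ± 54.9 RPKM), Cyp2a5 (602 ± 229 RPKM), Cyp2a4 (547 ± 237 RPKM) and Cyp2d10 (528 ± 35.6 RPKM), 4 neighbours whose means differed by less than the larger SD among them. At the low end of the PBS order stood Cyp2d12 (0.1101 ± 0.0611 RPKM), Cyp1b1 (0.077001 ± 0.0147 RPKM) and Cyp2s1 (0.0686 ± 0.0401 RPKM), whose ranges of mean and SD overlapped.

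**Figure D1:**
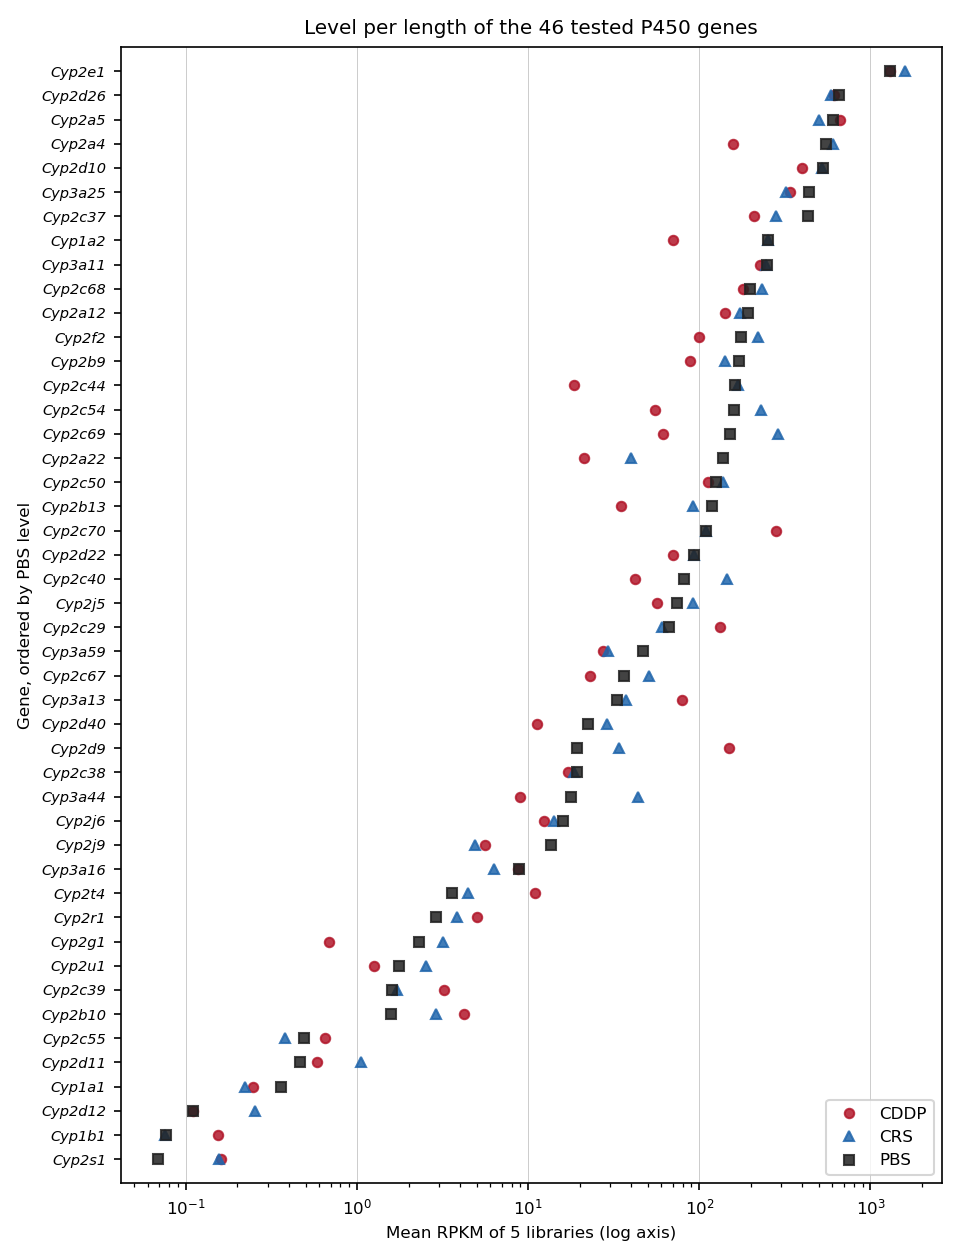
Mean RPKM (log axis) of the 46 tested members in CDDP, CRS and PBS livers, ordered by the PBS level; each point is the mean of 5 libraries. Cyp2e1 stood highest in all 3 groups. Points of CDDP livers lay apart from PBS at several places in the order, among them 18.4 RPKM for Cyp2c44 and 148 RPKM for Cyp2d9.

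Summed over all 58 genes, the families accounted for 1.65% ± 0.234 of all gene reads in CDDP+ACBP, 1.23% ± 0.244 in CDDP, 1.602% ± 0.147 in CRS+ACBP, 1.56% ± 0.179 in CRS, 1.57% ± 0.153 in ACBP and 1.62% ± 0.151 in PBS livers (SD, n = 5 each). By subfamily, Cyp1a took 0.0468% ± 0.009599 in CDDP+ACBP and 0.0151% ± 0.0141 in CDDP livers, against 0.0517% ± 0.004698 in PBS livers. Cyp2b took 0.0674% ± 0.0148, 0.0236% ± 0.00698 and 0.0563% ± 0.00526 in the same groups. Cyp2c took 0.33004% ± 0.0447, 0.243% ± 0.139 and 0.317% ± 0.0221. The 5 CDDP libraries lay below the 5 PBS libraries for Cyp1a and Cyp2b, whereas the CDDP and PBS libraries overlapped for Cyp2a, Cyp2c, Cyp2d, Cyp2e and Cyp3a. No test was run on these sums. In bulk liver, fewer cells of a type and less RNA per cell cannot be told apart.

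**Figure D2:**
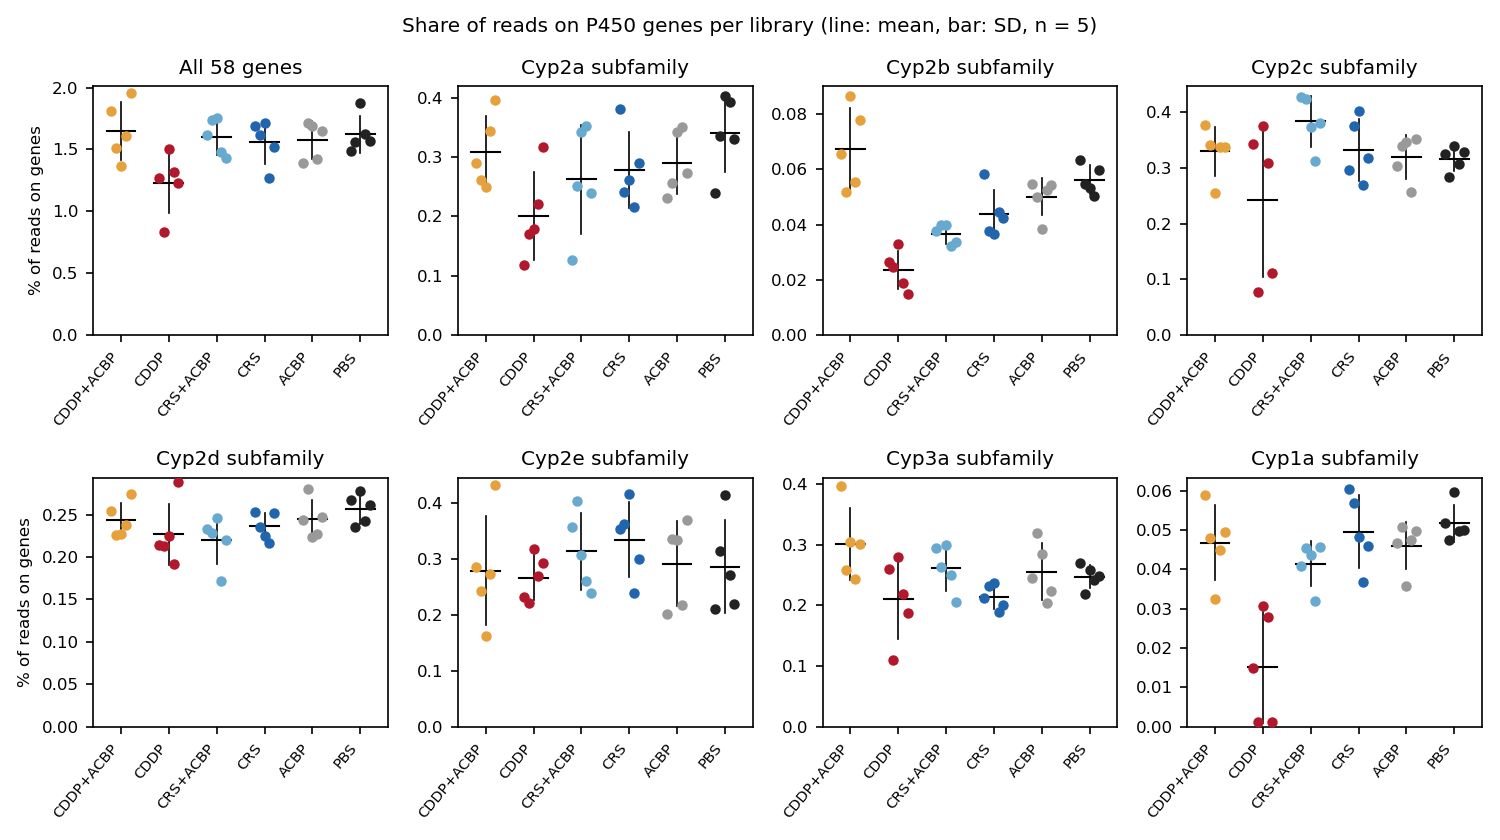
Percent of reads on genes taken by all 58 genes and by the Cyp2a, Cyp2b, Cyp2c, Cyp2d, Cyp2e, Cyp3a and Cyp1a subfamilies; points are single libraries, lines the mean of 5 and bars the SD. For all genes together CDDP livers lay at 0.836% to 1.50% and PBS livers at 1.49% to 1.88%.

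P450 transcripts differed in both directions between CDDP and PBS livers. With an edgeR quasi-likelihood test and Benjamini-Hochberg adjustment over the 16304 genes tested (adjusted p under 0.05), 7 of the 46 members rose and 15 fell in CDDP relative to PBS livers. Of all genes, 41.4% were called in this comparison, 23.1% up and 18.3% down. The share of members called was near that background, with more of them down than up, where all genes had more up than down. The median log2 fold change was -0.38 over the members and 0.02 over all genes. In 11 members every CDDP library lay below every PBS library and in 4 every one lay above, beside 11.4% and 13.3% of all genes.

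In CDDP+ACBP relative to CDDP livers, 15 members rose and 4 fell, where 33.8% of all genes were called, 14.9% up and 18.8% down. The member median was 0.39 and that of all genes -0.01. Every CDDP+ACBP library lay above every CDDP library in 10 members and below in 0, beside 6.02% and 8.09% of all genes. This comparison shares its CDDP libraries with the one above. Fitted on those 10 libraries alone it gave 10 member calls, with 2217 genes called in all. The members lost were Cyp1a2, Cyp2c37, Cyp2c40, Cyp2c69, Cyp2c70, Cyp2g1, Cyp2j9, Cyp2t4 and Cyp3a13 (adjusted p between 0.0679 and 0.196). In CDDP+ACBP relative to ACBP livers, which share no library with CDDP or PBS, edgeR called 0 members, beside 0.129% of all genes in either direction and 0.0675% up. There, 3 members had an unadjusted p under 0.05, beside 4.85% of all genes, and DESeq2 and limma voom each called 0 members. The interaction, which sets the change with CDDP under the ACBP pump against that under the PBS pump, was called positive in 11 members and negative in 3, beside 19.7% of all genes (8.38% positive and 11.3% negative). Over all genes the interaction was called in 3216 and CDDP+ACBP against CDDP in 5503. Without CDDP+ACBP replicate 4 these were 2495 and 4581 genes, with 11 and 17 members. With the muscle score of all 30 libraries as a covariate the interaction was called in 15 members and 3237 genes in all. The 7 libraries over the muscle limit or rich in brain transcripts were left out after the data were seen. Without them the interaction was called in 6 members and 1722 genes in all. The members lost were Cyp2a4, Cyp2c54, Cyp2c67, Cyp2d9, Cyp2d40, Cyp2t4, Cyp3a13 and Cyp3a59 (adjusted p between 0.0603 and 0.174).

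**Figure D3:**
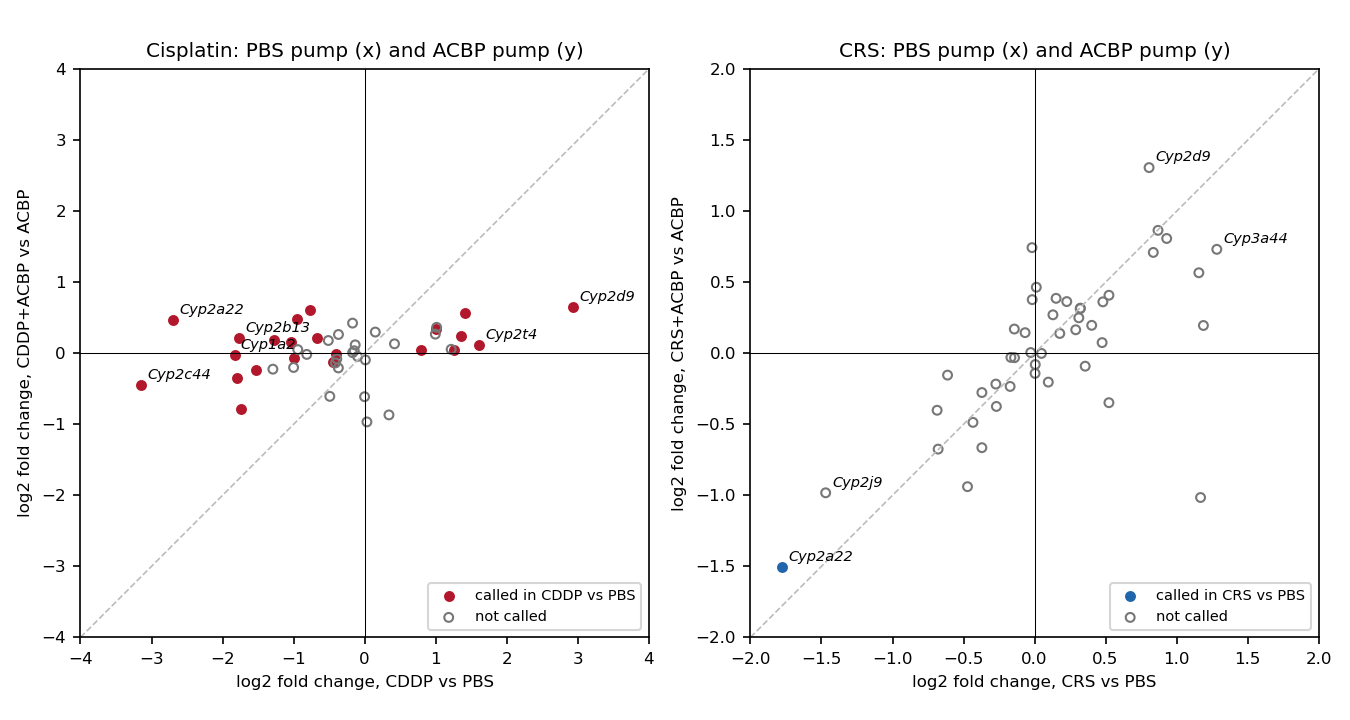
Log2 fold changes of the 46 tested members: left, CDDP vs PBS (horizontal axis) and CDDP+ACBP vs ACBP (vertical axis); right, the same for CRS; the dashed line marks equal change. In the left panel Cyp2c44 (-3.14) and Cyp2d9 (2.93) mark the ends of the horizontal axis, where their vertical values were -0.45 and 0.65.

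Some markers of liver zones and of other cells moved in the same libraries. Their counts stand beside 23.1% of all genes up and 18.3% down in CDDP relative to PBS livers. Of 16 pericentral hepatocyte markers that are not P450 genes, 9 fell and 2 rose in CDDP relative to PBS livers, with summed levels of 1804 to 3112 CPM against 2942 to 4218 CPM. They included Tbx3, a transcription factor of pericentral cells (log2 fold change -1.97 ± 0.27), and the Wnt feedback inhibitors Notum (-1.82 ± 0.27) and Nkd1 (-1.73 ± 0.27), each passing the edgeR test. Of 15 general hepatocyte markers, 8 rose and 2 fell. Their sums were 103514 to 208847 CPM in CDDP and 84709 to 113786 CPM in PBS livers. The median sum was not higher in CDDP (104487 CPM) than in PBS livers (111325 CPM). Their mean log2 level was 11.2 to 12.2 in CDDP, highest in replicate 5, and 10.8 to 11.1 in PBS livers. Of the tested B and plasma cell markers 9 of 10 fell (sums 2.28 to 14.7 against 34.6 to 48.1 CPM). Up and down among the tested markers were 4 and 3 of 15 for periportal hepatocytes, 4 and 0 of 8 for cholangiocytes, 1 and 7 of 12 for Kupffer cells and macrophages, 1 and 6 of 12 for sinusoidal endothelium and 0 and 5 of 12 for stellate cells. They were 0 and 7 of 10 for T and NK cells, 3 and 0 of 5 for neutrophils and monocytes (Mpo and Ngp at 0 in PBS livers), 0 and 3 of 20 for muscle and 0 and 1 of 4 for brain. In CDDP+ACBP livers the pericentral sums were 2599 to 4743 CPM. Relative to CDDP livers 6 of the 16 rose and 1 fell, beside 14.9% and 18.8% of all genes. The part of any of these in the P450 changes was not tested.

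**Figure D4:**
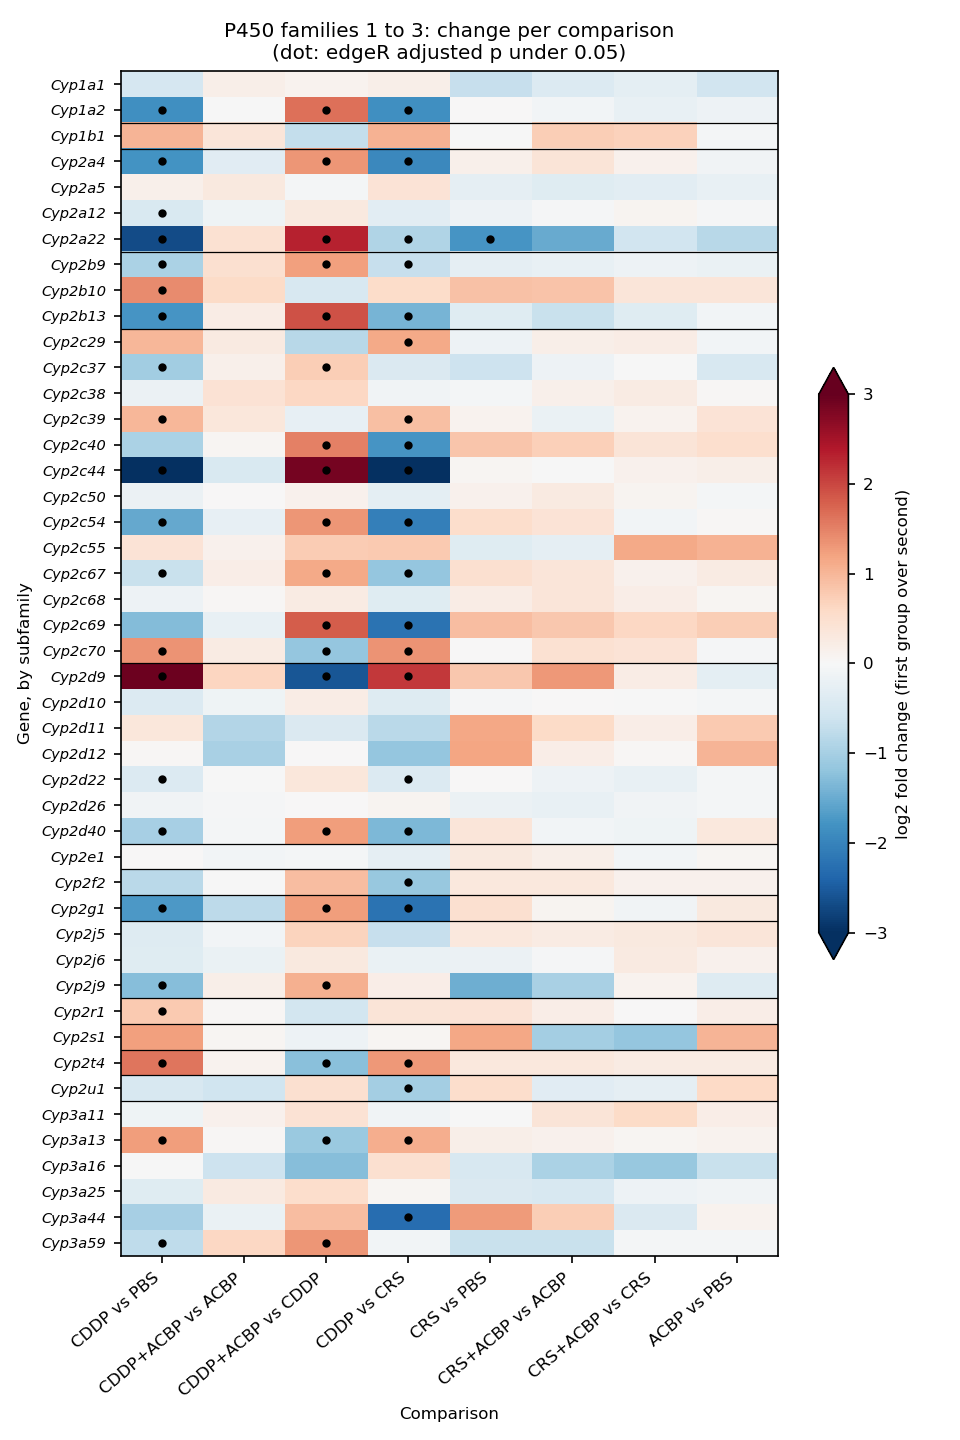
Log2 fold change (colour, capped at 3 in either direction) of the 46 tested members, grouped by subfamily, in 8 comparisons; a dot marks an edgeR adjusted p under 0.05. Calls with CDDP were 7 up and 15 down, beside 23.1% and 18.3% of all genes. The column of CDDP+ACBP vs CDDP held 15 up and 4 down, beside 14.9% and 18.8%. The columns of CDDP+ACBP vs ACBP and ACBP vs PBS held none, beside 0.129% and 0%.

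Family 1 was represented in liver almost entirely by Cyp1a2, the caffeine-metabolising, AhR-inducible enzyme of pericentral hepatocytes (ENSMUSG00000032310, chromosome 9, 57676937 to 57683703, - strand). It had 561, 442, 272, 430.0 and 534 CPM in the 5 CDDP+ACBP libraries, 142, 12.3, 288, 251 and 14.8 in CDDP, 447, 516, 354, 446 and 511 in ACBP and 493, 462, 601, 492 and 473 in PBS livers. It had 431, 479, 442, 323 and 477 CPM in CRS+ACBP and 580.3, 595, 524, 362 and 469 in CRS livers. All CDDP libraries lay below all PBS libraries, and CDDP replicates 2 and 5 were far below the other 3. Cyp1a2 fell in CDDP relative to PBS livers (log2 fold change -1.83 ± 0.48, adjusted p = 0.00352) and rose in CDDP+ACBP relative to CDDP livers (log2 fold change 1.66 ± 0.48, adjusted p = 0.00897), although CDDP+ACBP replicate 3 overlapped CDDP replicate 3. The call against PBS was lost when only those 2 groups were fitted (adjusted p = 0.0679). The interaction missed the threshold in the fit over all groups (log2 fold change 1.81 ± 0.67, adjusted p = 0.055). It was called under DESeq2 (1.84, adjusted p = 0.0394) and limma voom (1.70, adjusted p = 0.0212). In edgeR it was also called with a filter of 1 CPM in 5 libraries (adjusted p = 0.0497) and with the muscle score as a covariate (adjusted p = 0.0445). Cyp1a1, another AhR-inducible enzyme that oxidises aromatic hydrocarbons, ranged over the 5 CDDP libraries at 0.0807 to 1.21 CPM and over the 5 PBS libraries at 0.676 to 1.38 CPM, and Cyp1b1 at 0 to 2.17 and 0.359 to 0.563 CPM. Neither was called in any comparison.

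In the Cyp2a subfamily, 3 of 4 members fell with CDDP, beside 18.3% of all genes. Cyp2a22 (ENSMUSG00000091867, chromosome 7, 26931631 to 26939384, - strand) had 314, 305, 377, 411 and 411 CPM in CDDP+ACBP, 42.2, 117, 59.3, 45.4 and 103 in CDDP, 336, 151, 236, 367 and 229.6 in ACBP and 517, 383, 534, 440.1 and 493 in PBS livers. In the CRS arms it had 25.1, 104, 126, 116 and 92.5 CPM in CRS+ACBP and 243, 88.1, 94.6, 132 and 133 in CRS livers. Every CDDP, CRS+ACBP, CRS and ACBP library lay below every PBS library, while every CDDP+ACBP library lay above every CDDP library. Cyp2a22 fell in CDDP relative to PBS livers (log2 fold change -2.69 ± 0.35, adjusted p = 1.67e-06), rose in CDDP+ACBP relative to CDDP livers (log2 fold change 2.31 ± 0.34, adjusted p = 1.73e-05) and had a called interaction (log2 fold change 3.15 ± 0.47, adjusted p = 0.000111).

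Cyp2a4, a female-predominant steroid hydroxylase (ENSMUSG00000074254, chromosome 7, 26307169 to 26315088, + strand), had 657, 604, 625, 984 and 586 CPM in CDDP+ACBP, 302, 371, 361, 181 and 158 in CDDP, 598, 539.8, 1302, 1028 and 934 in ACBP and 459, 944, 819, 1597 and 932 in PBS livers. All CDDP libraries lay below all PBS and all CDDP+ACBP libraries. It fell in CDDP relative to PBS livers (log2 fold change -1.79 ± 0.33, adjusted p = 0.000112) and rose in CDDP+ACBP relative to CDDP livers (log2 fold change 1.33 ± 0.33, adjusted p = 0.00257). Its interaction was called (log2 fold change 1.44 ± 0.46, adjusted p = 0.0257), and was lost without CDDP+ACBP replicate 4, ACBP replicate 2 or PBS replicate 4 (adjusted p between 0.0507 and 0.0668). Its near copy Cyp2a5, which hydroxylates coumarin (ENSMUSG00000005547, chromosome 7, 26835305 to 26843548, + strand), had 1220.1, 916, 801, 1213 and 2459 CPM in CDDP+ACBP, 346, 782, 766, 1355 and 3676 in CDDP, 348, 982, 1068, 1162 and 587 in CRS+ACBP, 1740.1, 948, 786, 789 and 914 in CRS, 733, 1232, 1213, 1235 and 962 in ACBP and 699.8, 1267, 2001, 1181 and 1088 in PBS livers. CDDP replicates 1 and 5 were the lowest and the highest of all 30 libraries, and Cyp2a5 was not called (log2 fold change 0.15 ± 0.43, adjusted p = 0.805). The log2 ratio of Cyp2a4 to Cyp2a5 counts ran, as lowest, median and highest library, at -2.07, -0.60 and -0.30 in CDDP+ACBP, -4.54, -1.08 and -0.20 in CDDP, and -1.29, -0.42 and 0.44 in PBS livers. These ranges overlapped, and the difference between the 2 genes was not tested. Unique windows made up 61.99% of Cyp2a4 and 62.97% of Cyp2a5. In both genes the GENCODE span starts upstream of the RefSeq start, so the last bases of the promoters shown lie within those spans. Cyp2a12, another steroid hydroxylase, averaged 486 ± 63.1 CPM in CDDP and 662 ± 45.9 in PBS livers (SD, n = 5) and fell (log2 fold change -0.45 ± 0.17, adjusted p = 0.0364); the call was lost without CDDP replicates 1, 2 or 4 or PBS replicates 2, 3 or 4 (adjusted p between 0.0612 and 0.087) and with no filter on low counts (adjusted p = 0.0868).

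The female-predominant Cyp2b genes fell and the CAR target Cyp2b10 rose. Cyp2b13 (ENSMUSG00000040583, chromosome 7, 26061497 to 26096197, + strand) had 189, 163, 171, 245 and 457 CPM in CDDP+ACBP, 49.7, 78.7, 73.97, 50.8 and 75.03 in CDDP, 217, 174, 122, 245 and 297 in ACBP and 194, 232, 262, 192 and 235 in PBS livers. It had 82.4, 152, 135, 171 and 125 CPM in CRS+ACBP and 239, 150.4, 145, 178 and 149 in CRS livers. Every CDDP library was below every library of the other 5 groups. Cyp2b13 fell in CDDP relative to PBS livers (log2 fold change -1.76 ± 0.26, adjusted p = 8.38e-06), rose in CDDP+ACBP relative to CDDP livers (log2 fold change 1.90 ± 0.26, adjusted p = 7.25e-06) and had a called interaction (log2 fold change 1.98 ± 0.36, adjusted p = 0.00062).

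Cyp2b9, also female-predominant, had the highest RPKM of the subfamily in PBS livers. It had 426, 305, 559, 283 and 376 CPM in CDDP+ACBP, 196, 170.0, 223, 109.7 and 133 in CDDP, 302, 328, 253, 249.5 and 260.1 in ACBP and 408, 298, 272, 304 and 329 in PBS livers. It had 305, 257, 260.5, 149 and 226 CPM in CRS+ACBP and 314, 238, 245, 259.8 and 276 in CRS livers. The CDDP libraries lay below all PBS, CRS, ACBP and CDDP+ACBP libraries but overlapped CRS+ACBP. Cyp2b9 fell with CDDP (log2 fold change -0.95 ± 0.20, adjusted p = 0.000405), rose in CDDP+ACBP relative to CDDP livers (log2 fold change 1.23 ± 0.20, adjusted p = 4.79e-05) and had a called interaction (log2 fold change 1.44 ± 0.28, adjusted p = 0.00102). Cyp2b10, the standard CAR target of mouse liver, averaged 8.895 ± 3.898 CPM in CDDP and 3.34 ± 1.302 CPM in PBS livers (SD, n = 5 each). It rose with CDDP (log2 fold change 1.41 ± 0.52, adjusted p = 0.0289), with overlapping libraries, and the call was lost without CDDP replicates 3 or 4 or PBS replicates 2 or 5 (adjusted p between 0.0528 and 0.0774).

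Of the 13 tested Cyp2c genes, 4 fell and 2 rose with CDDP, beside 18.3% and 23.1% of all genes. Cyp2c44, an arachidonic acid epoxygenase (ENSMUSG00000025197, chromosome 19, 44005022 to 44029208, - strand, listed there as Cyp2c23), had the lowest log2 fold change of the 46. It had 244, 299, 251, 383 and 277 CPM in CDDP+ACBP, 61.5, 13.6, 66.6, 43.8 and 13.1 in CDDP, 286, 428, 563, 322 and 382 in ACBP and 275, 316, 351, 391 and 421 in PBS livers, and 384, 387, 421, 272 and 514 in CRS+ACBP and 296, 389, 396, 348 and 384 in CRS livers. Every CDDP library lay below every library of the other groups, and CDDP replicates 2 and 5 were again lowest. The log2 fold change with CDDP was -3.14 ± 0.33 (adjusted p = 1.38e-07). It was 2.87 ± 0.33 in CDDP+ACBP relative to CDDP livers (adjusted p = 5.99e-07), and the interaction was 2.70 ± 0.44 (adjusted p = 0.00022). All its 50-base transcript windows were unique.

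Cyp2c37, another epoxygenase, had the highest RPKM of the subfamily in PBS livers (429.9 ± 91.5). It had 699, 602, 568, 637 and 662 CPM in CDDP+ACBP, 488, 175, 514, 409 and 316 in CDDP, 564, 691, 476, 419.9 and 682 in ACBP and 913, 552, 945, 674 and 837 in PBS livers. It had 465, 554, 463, 477 and 587 CPM in CRS+ACBP and 476, 565, 535, 461 and 528 in CRS livers. CDDP libraries lay below all PBS and all CDDP+ACBP libraries. It fell with CDDP (log2 fold change -1.04 ± 0.21, adjusted p = 0.000221), rose in CDDP+ACBP relative to CDDP livers (log2 fold change 0.74 ± 0.20, adjusted p = 0.00647) and had a called interaction (log2 fold change 1.20 ± 0.29, adjusted p = 0.00483). Cyp2c54 had 168, 239.7, 176, 269.8 and 374 CPM in CDDP+ACBP, 169.6, 27.02, 106, 106 and 84.7 in CDDP, 376, 422, 398, 474 and 375 in CRS and 329, 276, 260.1, 254 and 304 in PBS livers. It fell with CDDP (log2 fold change -1.53 ± 0.29, adjusted p = 0.000157), with no overlap, and rose in CDDP+ACBP relative to CDDP livers (log2 fold change 1.31 ± 0.29, adjusted p = 0.00101), where 1 CDDP library reached into the CDDP+ACBP range. Its interaction was called (log2 fold change 1.29 ± 0.40, adjusted p = 0.0244) and was lost without CDDP+ACBP replicate 5 (adjusted p = 0.0531).

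The 3 Cyp2c genes with the most shared sequence also had their lowest mean in CDDP livers. Cyp2c40 had 318, 257, 90.6, 258 and 299 CPM in CDDP+ACBP, 181, 15.99, 147, 69.2 and 17.3 in CDDP, 199, 416, 406, 199 and 254 in CRS and 179.8, 159, 191, 160.5 and 136 in PBS livers. Cyp2c69 had 446, 347, 276, 444 and 338 CPM in CDDP+ACBP, 199, 6.24, 221, 90.5 and 7.58 in CDDP, 258, 617, 907, 267 and 400.0 in CRS and 299, 239, 210.2, 347 and 190.1 in PBS livers. Both are female-predominant, and against PBS neither was called in the fit over all groups (adjusted p = 0.0834 for Cyp2c40 and 0.0761 for Cyp2c69). With the muscle score as a covariate Cyp2c69 was called lower (-1.40, adjusted p = 0.0472). Both rose in CDDP+ACBP relative to CDDP livers (log2 fold change 1.51 ± 0.44, adjusted p = 0.00955 for Cyp2c40; log2 fold change 1.82 ± 0.59, adjusted p = 0.0187 for Cyp2c69). Cyp2c67 had 101, 94.9, 55.01, 87.3 and 97.6 CPM in CDDP+ACBP, 40.8, 40.9, 43.2, 45.7 and 27.5 in CDDP, 83.9, 111, 101, 65.5 and 77.8 in CRS and 58.3, 62.1, 76.4, 62.5 and 55.8 in PBS livers. It fell with CDDP (log2 fold change -0.67 ± 0.18, adjusted p = 0.00398), rose in CDDP+ACBP relative to CDDP livers (log2 fold change 1.14 ± 0.18, adjusted p = 3.9e-05) and had a called interaction (log2 fold change 0.88 ± 0.25, adjusted p = 0.0158). The CDDP libraries overlapped neither PBS nor CDDP+ACBP libraries.

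Cyp2c70, which forms muricholic acids in mouse bile acid synthesis, went the other way. It had 329, 243, 105, 253 and 317 CPM in CDDP+ACBP, 723, 40.4, 930.3, 677 and 398 in CDDP, 168, 270.4, 294, 134 and 222 in CRS and 184, 225, 229, 188 and 253 in PBS livers. The CDDP libraries held both the lowest and the highest of these values. Cyp2c70 rose in CDDP relative to PBS livers (log2 fold change 1.36 ± 0.42, adjusted p = 0.0112), a call lost when only those groups were fitted (adjusted p = 0.0826). It fell in CDDP+ACBP relative to CDDP livers (log2 fold change -1.15 ± 0.42, adjusted p = 0.0343), a call lost without CDDP+ACBP replicates 2, 3 or 4 or CDDP replicates 1, 3 or 4 (adjusted p between 0.0572 and 0.11). Cyp2c39, which hydroxylates retinoic acid, was low, with 4.99, 5.31, 3.97, 4.56 and 5.704 CPM in CDDP+ACBP, 4.095, 5.57, 5.76, 5.75 and 7.99 in CDDP, 3.74, 3.25, 4.48, 1.77 and 2.23 in CRS and 2.93, 2.97, 3.93, 2.22 and 2.44 in PBS livers. It rose with CDDP (log2 fold change 1.005 ± 0.24, adjusted p = 0.00167), and all CDDP libraries lay above all PBS libraries. Cyp2c29, an epoxygenase induced through CAR and PXR, had 396, 282, 134, 106 and 235 CPM in CDDP+ACBP, 557, 115, 564, 590.5 and 209 in CDDP, 197, 203, 247, 80.9 and 197 in CRS and 150.3, 183, 289, 178 and 219.7 in PBS livers. In the fit over all groups it was not called in CDDP against PBS (log2 fold change 0.996 ± 0.42, adjusted p = 0.0545). DESeq2 (0.96, adjusted p = 0.0351) and limma voom (1.25, adjusted p = 0.00657) each called it higher. The remaining tested members, Cyp2c38, Cyp2c50, Cyp2c55 and Cyp2c68, were not called in any of the 11 comparisons of the fit over all groups. Cyp2c38 was called higher in CDDP+ACBP than in CDDP livers by DESeq2 (0.65, adjusted p = 0.0335). In edgeR it was called there with RLE scaling (adjusted p = 0.0461), another filter (adjusted p = 0.0483) and without the 7 libraries over the muscle limit or rich in brain transcripts (adjusted p = 0.0307).

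In the Cyp2d subfamily, Cyp2d9, a male-predominant testosterone hydroxylase (ENSMUSG00000068086, chromosome 15, 82433437 to 82456845, + strand), had the highest log2 fold change of the 46. It had 71.9, 59.9, 60.4, 49.5 and 90.9 CPM in CDDP+ACBP, 90.3, 412, 133, 157 and 1180.3 in CDDP, 46.1, 54.9, 17.2, 34.96 and 59.03 in ACBP and 48.7, 39.2, 70.4, 45.7 and 53.9 in PBS livers. It had 142, 67.1, 105, 75.9 and 135 CPM in CRS+ACBP and 83.3, 90.2, 80.1, 109.7 and 87.6 in CRS livers. All CDDP libraries lay above all PBS libraries, with replicates 2 and 5 far above the other 3, and CDDP+ACBP replicate 5 just overlapped CDDP replicate 1. Cyp2d9 rose in CDDP relative to PBS livers (log2 fold change 2.93 ± 0.47, adjusted p = 2.22e-05) and fell in CDDP+ACBP relative to CDDP livers (log2 fold change -2.57 ± 0.46, adjusted p = 0.000143), and its interaction was called (log2 fold change -2.29 ± 0.63, adjusted p = 0.0118). Without CDDP replicate 5 these log2 values were 1.94 (adjusted p = 6.98e-05), -1.57 (adjusted p = 0.000897) and -1.29 (adjusted p = 0.0466). Under limma voom with quality weights they were 1.53 (adjusted p = 0.00038), -1.15 (adjusted p = 0.018) and -0.80 (adjusted p = 0.219). Its exons overlap 2 small genes on the same strand (Gm27622 and Gm46501) over 9.26% of their bases. Its GENCODE span starts upstream of the RefSeq start, so the promoter shown lies within that span.

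Cyp2d26 had the highest RPKM of the subfamily in PBS livers and was not called (log2 fold change -0.10 ± 0.16, adjusted p = 0.659). It had 1147, 979, 853, 1064 and 1475 CPM in CDDP+ACBP, 1070.1, 914, 1066, 917 and 1549 in CDDP, 1043, 1150.5, 1045, 659 and 945 in CRS+ACBP, 1103, 1046, 1113, 882 and 1098 in CRS, 1078, 1319.5, 1153, 975 and 1167 in ACBP and 1216, 1082, 1334, 1122 and 1152 in PBS livers. The 6 groups overlapped. Cyp2d40 had 59.5, 48.6, 40.6, 37.5 and 55.8 CPM in CDDP+ACBP, 35.7, 15.3, 18.4, 16.4 and 15.8 in CDDP, 38.5, 46.0004, 64.1, 52.6 and 58.4 in CRS and 40.9, 43.5, 46.6, 39.2 and 32.4 in PBS livers. It fell with CDDP (log2 fold change -0.995 ± 0.22, adjusted p = 0.000823), with 1 CDDP library inside the PBS range, and rose in CDDP+ACBP relative to CDDP livers with no overlap (log2 fold change 1.25 ± 0.22, adjusted p = 0.000132). Its interaction was called (log2 fold change 0.93 ± 0.31, adjusted p = 0.0342) and was lost without CDDP+ACBP replicates 1 or 5, CDDP replicates 2, 4 or 5, ACBP replicate 3 or PBS replicates 2 or 3 (adjusted p between 0.0508 and 0.0661). Cyp2d22, proposed as the mouse counterpart of human CYP2D6, had 358, 312, 319.8, 361 and 379.5 CPM in CDDP+ACBP, 291, 214, 313, 196 and 360.4 in CDDP, 367, 382, 339, 386 and 353 in CRS and 422, 327, 411, 334 and 329 in PBS livers. It fell with CDDP (log2 fold change -0.41 ± 0.14, adjusted p = 0.0253) with overlapping libraries, and the call was lost without CDDP replicates 2 or 4 or PBS replicates 1 or 3 (adjusted p between 0.0648 and 0.0894), in a fit of those groups alone (adjusted p = 0.109) and with no filter on low counts (adjusted p = 0.0705). Cyp2d10, Cyp2d11 and Cyp2d12 were not called in any comparison of the fit over all groups. There, Cyp2d10 had an edgeR adjusted p of 0.053 against PBS. DESeq2 (log2 fold change -0.44, adjusted p = 0.0275) and limma voom (-0.59, adjusted p = 0.000695) called it lower in CDDP than in PBS livers, as did RLE scaling and another filter. Limma voom also called it lower in CDDP than in CRS livers (adjusted p = 0.000848) and higher in CDDP+ACBP than in CDDP livers (adjusted p = 0.0465).

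Cyp2e1, whose level per length was the highest, had 2708, 2238, 1368, 2605 and 4660.5 CPM in CDDP+ACBP, 2228, 2273, 2997, 2433 and 4167 in CDDP, 3772, 4262, 3106, 2624 and 2484 in CRS+ACBP, 3391, 3781, 4509, 2359 and 3059 in CRS, 1932, 3396, 3313, 2046 and 3803 in ACBP and 2004, 3056, 4175, 2689 and 2064 in PBS livers. All 6 groups overlapped, and the difference with CDDP was not called (log2 fold change 0.01 ± 0.27, adjusted p = 0.978). Cyp2f2, known for naphthalene oxidation in mouse lung, had 408, 447, 153, 359.6 and 566 CPM in CDDP+ACBP, 324, 33.9, 285, 298 and 72.5 in CDDP, 609.8, 496, 652, 253 and 427 in CRS+ACBP, 425, 469, 557, 341 and 439 in CRS, 311, 401, 387, 403 and 454 in ACBP and 338, 363, 392, 380.4 and 311 in PBS livers. CDDP replicates 2 and 5 were low and the other 3 lay at or just under the PBS range. In the fit over all groups Cyp2f2 was not called against PBS (log2 fold change -0.81 ± 0.38, adjusted p = 0.0881). DESeq2 called it lower there (-0.86, adjusted p = 0.0442) and higher in CDDP+ACBP than in CDDP livers (0.97, adjusted p = 0.026). Its exons overlap Gm15883 on the opposite strand over 13.5% of their bases, and the strand setting of the counting is not given in the sources used here.

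Cyp2g1, best known from olfactory mucosa, was scarce in liver. It had 2.198, 2.603, 3.15, 4.44 and 5.25 CPM in CDDP+ACBP, 2.28, 0.891, 2.91, 0.756 and 0.484 in CDDP, 3.41, 2.82, 11.5, 6.94 and 5.71 in ACBP and 2.45, 4.36, 7.805, 7.15 and 2.88 in PBS livers, and 4.73, 9.696, 5.63, 5.22 and 6.78 in CRS+ACBP and 7.66, 6.32, 7.23, 7.37 and 5.695 in CRS livers. It fell with CDDP (log2 fold change -1.73 ± 0.42, adjusted p = 0.00169), with CDDP replicate 3 inside the PBS range. It rose in CDDP+ACBP relative to CDDP livers (log2 fold change 1.25 ± 0.42, adjusted p = 0.0216), a call lost without CDDP+ACBP replicates 4 or 5 or CDDP replicates 2, 4 or 5 (adjusted p between 0.0517 and 0.063) and under limma voom, which gave 0.63 (adjusted p = 0.426). Cyp2r1, a vitamin D hydroxylase, had 10.8, 5.26, 5.33, 6.38 and 8.75 CPM in CDDP+ACBP, 11.6, 11.3, 11.96, 9.73 and 8.63 in CDDP, 10.1, 9.02, 6.45, 7.38 and 7.67 in CRS+ACBP, 5.95, 8.59, 13.3, 6.52 and 6.19 in CRS, 5.99, 8.39, 5.86, 6.22 and 8.97 in ACBP and 3.83, 6.52, 7.25, 6.96 and 6.13 in PBS livers. Every CDDP library lay above every PBS library, and Cyp2r1 rose (log2 fold change 0.79 ± 0.23, adjusted p = 0.00717).

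Cyp2t4 had 7.13, 6.85, 6.96, 5.92 and 11.02 CPM in CDDP+ACBP, 10.6, 11.5, 13.3, 7.26 and 48.2 in CDDP, 8.27, 10.4, 6.45, 12.2 and 6.11 in CRS+ACBP, 6.75, 7.73, 4.99, 11.1 and 6.38 in CRS, 5.05, 9.797, 6.04, 5.92 and 8.17 in ACBP and 6.46, 4.71, 5.47, 5.18 and 7.69 in PBS livers. CDDP replicate 5 stood far above all other libraries, and CDDP replicate 4 lay inside the PBS range. Cyp2t4 rose with CDDP (log2 fold change 1.62 ± 0.36, adjusted p = 0.000715), fell in CDDP+ACBP relative to CDDP livers (log2 fold change -1.26 ± 0.35, adjusted p = 0.00701) and had a called interaction (log2 fold change -1.50 ± 0.50, adjusted p = 0.0329). Without CDDP replicate 5 these values were 0.85 (adjusted p = 0.0083), -0.49 (adjusted p = 0.134) and -0.74 (adjusted p = 0.129). The interaction was also lost without other single libraries, in all without CDDP+ACBP replicates 3 or 4, CDDP replicate 5, ACBP replicates 2 or 5 or PBS replicates 2 or 4 (adjusted p between 0.053 and 0.129).

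Among the Cyp2j epoxygenases, Cyp2j9 was lower with CDDP and with CRS. It had 18.95, 18.2, 97.03, 37.8 and 23.4 CPM in CDDP+ACBP, 13.8, 14.2, 23.3, 14.8 and 27.4 in CDDP, 17.98, 63.8, 34.2, 31.7 and 24.4 in ACBP and 35.2, 39.7, 35.4, 51.5 and 64.3 in PBS livers, and 11.9, 14.97, 14.6, 25.1 and 20.5 in CRS+ACBP and 14.7, 18.2, 13.9, 20.2 and 14.5 in CRS livers. All CDDP and all CRS libraries lay below all PBS libraries, and CDDP+ACBP replicate 3 stood far above the rest of its group. Cyp2j9 fell in CDDP relative to PBS livers (log2 fold change -1.28 ± 0.37, adjusted p = 0.00642). In CRS relative to PBS livers Cyp2j9 was not called by edgeR over all groups (log2 fold change -1.47, adjusted p = 0.145). It rose in CDDP+ACBP relative to CDDP livers (log2 fold change 1.07 ± 0.36, adjusted p = 0.0243), where the value without CDDP+ACBP replicate 3 was 0.40 (adjusted p = 0.325); the call was lost in all without CDDP+ACBP replicate 3 or CDDP replicates 1, 2 or 4 (adjusted p between 0.0523 and 0.325). Limma voom gave 0.37 (adjusted p = 0.426). The interaction was called (log2 fold change 1.46 ± 0.51, adjusted p = 0.0427), was 0.79 (adjusted p = 0.181) without that library, and was lost in all without CDDP+ACBP replicates 3 or 4, CDDP replicates 1, 2 or 4, ACBP replicates 1, 3, 4 or 5 or PBS replicates 4 or 5 (adjusted p between 0.059 and 0.181). Cyp2j5, highest of the Cyp2j genes by RPKM in PBS livers, had 279, 222, 95.5, 195 and 263 CPM in CDDP+ACBP, 174, 82.7, 180.4, 181 and 41.1 in CDDP, 336, 276, 269.9, 259 and 183 in CRS+ACBP, 199, 236, 291, 126 and 221 in CRS, 194, 226, 275, 161 and 258 in ACBP and 142, 190.2, 207, 187 and 139 in PBS livers. CDDP replicates 2 and 5 were lowest. Neither Cyp2j5 (log2 fold change -0.39 ± 0.30, adjusted p = 0.308 against PBS) nor Cyp2j6 was called in any comparison of the fit over all groups. DESeq2 called Cyp2j5 higher in CDDP+ACBP than in CDDP livers (0.71, adjusted p = 0.0435) and lower in CDDP than in CRS livers (-0.73, adjusted p = 0.0378).

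Cyp2u1, a fatty acid hydroxylase of family 2 on chromosome 3, had 6.71, 12.9, 6.41, 7.23 and 12.9 CPM in CDDP+ACBP, 11.5, 5.96, 4.94, 4.84 and 5.65 in CDDP, 10.7, 11.1, 9.701, 12.7 and 10.99 in CRS+ACBP, 11.9, 16.6, 11.3, 13.04 and 13.7 in CRS, 8.96, 10.8, 20.5, 13.2 and 16.8 in ACBP and 8.85, 9.31, 8.17, 8.63 and 11.3 in PBS livers. CDDP replicate 1 stood at the PBS level and the other 4 CDDP libraries lay below every PBS library. It was not called against PBS (log2 fold change -0.49 ± 0.24, adjusted p = 0.104).

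In the Cyp3a subfamily, Cyp3a25 (486 ± 95.7 RPKM in CDDP+ACBP, 337 ± 174 in CDDP and 435 ± 67.1 in PBS livers) and Cyp3a11 had the highest levels per length and were not called. Cyp3a11, the main drug-metabolising PXR target of mouse liver, had 2373, 1329, 1002, 1254 and 1872 CPM in CDDP+ACBP, 1536, 353, 1782, 1322 and 784 in CDDP, 2263, 1910.4, 2219.8, 1612 and 1368 in CRS+ACBP, 1081, 1449, 1678, 789 and 1260.2 in CRS, 1318, 1757, 1588, 1063 and 1490.2 in ACBP and 1218, 1112, 1449, 1407 and 1144 in PBS livers. CDDP replicates 2 and 5 were lowest of all, the other 3 lay among or above the PBS libraries, and the log2 fold change was -0.13 ± 0.29 (adjusted p = 0.741). Cyp3a13 rose, with 107, 110.0, 78.8, 93.6 and 152 CPM in CDDP+ACBP, 227, 118, 142, 178 and 512 in CDDP, 77.8, 143, 112, 107 and 86.1 in ACBP and 95.8, 98.7, 109.6, 88.4 and 98.1 in PBS livers. It had 168, 119, 109, 115 and 68.7 CPM in CRS+ACBP and 117, 107, 112, 109 and 111 in CRS livers. All CDDP libraries lay above all PBS libraries, with replicate 5 highest. The log2 values of Cyp3a13 were 1.26 ± 0.28 in CDDP relative to PBS (adjusted p = 0.00066), -1.12 ± 0.28 in CDDP+ACBP relative to CDDP (adjusted p = 0.00265) and -1.22 ± 0.39 for the interaction (adjusted p = 0.0258). Without CDDP replicate 5 they were 0.76 (adjusted p = 0.00536), -0.62 (adjusted p = 0.0257) and -0.72 (adjusted p = 0.0773), and the interaction was lost in all without CDDP+ACBP replicate 3, CDDP replicate 5 or ACBP replicate 2 (adjusted p between 0.0514 and 0.0773), and under limma voom (adjusted p = 0.0693).

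Cyp3a59 had 199, 118, 169.8, 77.9 and 120.4 CPM in CDDP+ACBP, 52.96, 76.05, 72.2, 43.9 and 29.6 in CDDP, 97.9, 113, 125, 60.6 and 51.8 in ACBP and 145, 78.5, 82.7, 57.8 and 105 in PBS livers. All CDDP+ACBP libraries lay above all CDDP libraries, while CDDP and PBS libraries overlapped. It rose in CDDP+ACBP relative to CDDP livers (log2 fold change 1.32 ± 0.29, adjusted p = 0.000953) and had a called interaction (log2 fold change 1.38 ± 0.40, adjusted p = 0.0164). It fell in CDDP relative to PBS livers (log2 fold change -0.77 ± 0.28, adjusted p = 0.0308), a call lost without CDDP replicates 4 or 5 or PBS replicates 1 or 5 (adjusted p between 0.0613 and 0.127), under limma voom (adjusted p = 0.232) and in a fit of those groups alone (adjusted p = 0.0558). Cyp3a16, Cyp3a25 and Cyp3a11 were not called in any comparison of the fit over all groups. Limma voom called Cyp3a25 lower in CDDP than in PBS livers (-0.61, adjusted p = 0.00909) and higher in CDDP+ACBP than in CDDP livers (0.73, adjusted p = 0.0105). It also called the interaction of CDDP and ACBP for Cyp3a25 (0.89, adjusted p = 0.0183). Cyp2s1 and Cyp2w1, both scarce, ranged at 0 to 3.51 and 0 to 0 CPM in CDDP livers and at 0.1196 to 0.493 and 0 to 0 CPM in PBS livers.

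**Figure D5:**
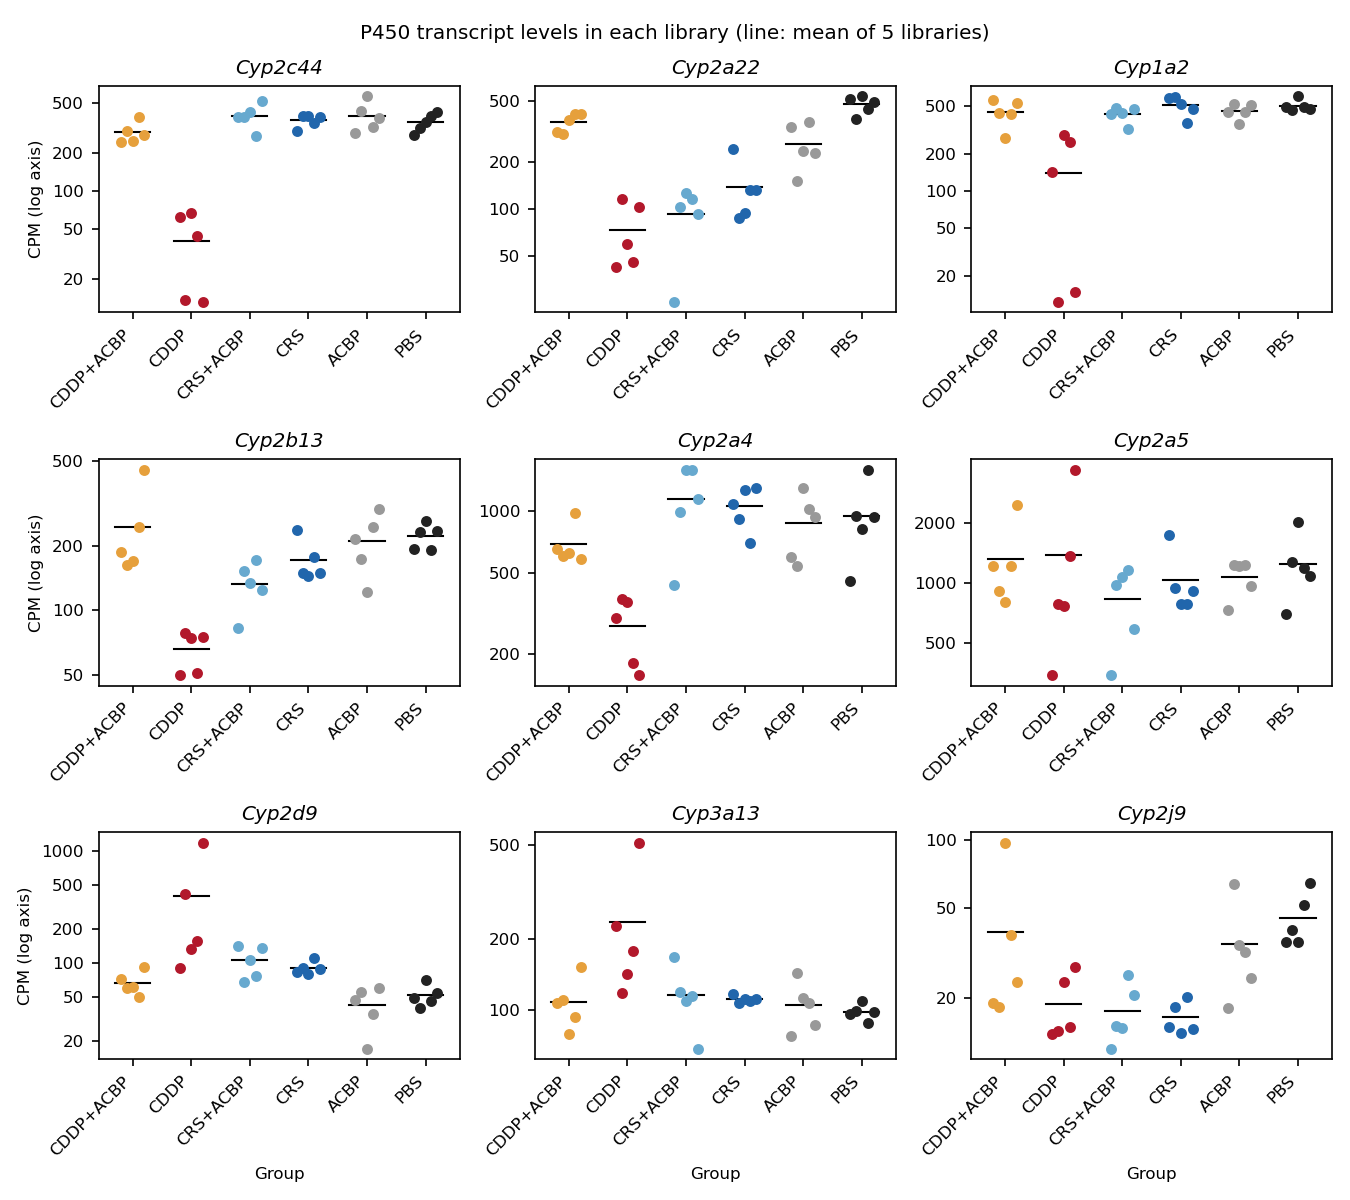
CPM (log axis) in each library of Cyp2c44, Cyp2a22, Cyp1a2, Cyp2b13, Cyp2a4, Cyp2a5, Cyp2d9, Cyp3a13 and Cyp2j9 in the 6 groups, with the mean of 5 as a line. For Cyp2c44 all CDDP libraries (13.1 to 66.6 CPM) lay below all others, and for Cyp2a22 the CRS+ACBP and CRS libraries were low as well.

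By class, the members known as female-predominant were called in both directions with CDDP. Of the 9 listed and tested (7 of them among the 46, plus Cyp3a41a and Cyp3a41b, whose symbols fall outside the naming rule), 3 fell, namely Cyp2a4, Cyp2b9 and Cyp2b13, and Cyp3a41a rose, where 18.3% of all genes fell and 23.1% rose. Cyp3a41a averaged 24.1 ± 9.78 CPM in CDDP and 9.97 ± 4.79 CPM in PBS livers (SD, n = 5 each; log2 fold change 1.27 ± 0.46, adjusted p = 0.0269). The median log2 fold change of the class was -0.95, against 0.02 for all genes. Of the 9, 5 rose in CDDP+ACBP relative to CDDP livers and Cyp3a41a fell (-1.21 ± 0.46, adjusted p = 0.0399), beside 14.9% and 18.8% of all genes. Of the 9 members inducible through CAR or PXR, Cyp2b10 and Cyp3a13 rose and Cyp2c37 and Cyp2c54 fell with CDDP (class median -0.13). Of the 7 pericentral members, Cyp1a2 and Cyp2c37 fell and the other 5, Cyp2e1 among them, were not called. With 4 of 9, 4 of 9 and 2 of 7 called, where 41.4% of all genes were, nothing is read from the share called in these classes.

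Genes that serve or control these enzymes also changed in CDDP relative to PBS livers, beside a background of 41.4% of genes called. Of 24 tested P450 genes of other families, 5 rose and 5 fell. Cyp39a1, an oxysterol hydroxylase of bile acid synthesis, rose (138 ± 38.3 CPM in CDDP, 20.4 ± 5.502 in PBS livers; log2 fold change 2.76 ± 0.34, adjusted p = 8.16e-07). Cyp46a1, the cholesterol hydroxylase best known from brain, fell (-3.29 ± 0.44, adjusted p = 2.54e-06), as did the fatty acid hydroxylase Cyp4v3 (-1.42 ± 0.19, adjusted p = 1.85e-06). Of 20 redox partners and haem genes, 6 rose and 4 fell. The haem synthesis genes Ppox (-0.88 ± 0.14) and Alad (-1.10 ± 0.20) fell, and Hmox1, which degrades haem, rose (1.39 ± 0.27), with adjusted p-values of 2.77e-05, 0.000103 and 0.000188.

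Of 30 tested regulators of P450 genes, 7 rose and 8 fell with CDDP, beside 23.1% and 18.3% of all genes. Nr1i3, which encodes CAR, averaged 442 ± 149.6 CPM in CDDP and 1448 ± 133 CPM in PBS livers and fell (log2 fold change -1.71 ± 0.27, adjusted p = 1.63e-05). Nr1h4, the bile acid receptor, fell as well (-1.12 ± 0.22, adjusted p = 0.000225), and so did the retinoid X receptor gene Rxrg (-1.39 ± 0.29, adjusted p = 0.000465). Among these regulators 6 rose and 4 fell in CDDP+ACBP relative to CDDP livers, beside 14.9% and 18.8% of all genes. They included Nr1i3 up (1.35 ± 0.26, adjusted p = 0.000349), Cebpa up (0.81 ± 0.18, adjusted p = 0.00116) and Hnf4a down (-0.76 ± 0.17, adjusted p = 0.00105). Hnf4a and Cebpa encode hepatocyte transcription factors.

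Targets of the same receptors outside the P450 genes did not all go the way of the P450 members. Of 7 tested AhR targets, 5 rose and 1 fell with CDDP while the AhR-inducible Cyp1a2 fell. Of all genes, 23.1% rose and 18.3% fell. Nqo1, a quinone reductase, rose (1.84 ± 0.25, adjusted p = 2.71e-06), as did the conjugating enzymes Ugt1a6b (3.0005 ± 0.52, adjusted p = 5.73e-05) and Gsta1 (4.81 ± 0.87, adjusted p = 9.15e-05). Nqo1 and Gsta1 are also targets of Nfe2l2. Of 25 CAR and PXR targets, 9 rose and 3 fell, with the epoxide hydrolase Ephx1 (1.50 ± 0.26, adjusted p = 4.56e-05), the glutathione transferase Gstm2 (1.14 ± 0.23, adjusted p = 0.000258) and the carboxylesterase Ces2c (2.91 ± 0.60, adjusted p = 0.000354) higher. Of 32 other oxidising and hydrolysing enzymes, 10 rose and 10 fell, among them 3 carboxylesterases, Ces2e up (3.13 ± 0.36), Ces1f down (-1.85 ± 0.22) and Ces3a down (-2.995 ± 0.39), each called. Of 5 tested cytokine genes and mediators reported to lower P450 expression, Socs3 rose (1.23 ± 0.39, adjusted p = 0.0119) and Il1b (-1.93 ± 0.55, adjusted p = 0.00621) and Il1a (-0.91 ± 0.27, adjusted p = 0.00806) fell. In CDDP+ACBP relative to CDDP livers 14.9% of all genes rose and 18.8% fell. The counts up and down there were 4 and 5 for other P450 families and 4 and 5 for redox and haem genes. They were 1 and 5 for AhR targets, 3 and 4 for CAR and PXR targets, and 10 and 9 for the other enzymes. None of these pathway lists held a called gene under edgeR in CDDP+ACBP relative to ACBP livers, beside 0.129% of all genes.

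The number of members called with CRS depended on the test. In CRS relative to PBS livers 0 members rose and 1 fell, beside 0.117% and 0.0245% of all genes (0.141% in all). That member was Cyp2a22, whose values are given above (log2 fold change -1.78 ± 0.34, adjusted p = 0.0123), and the call was lost without CRS replicates 2, 3 or 5 or PBS replicate 5 (adjusted p between 0.0521 and 0.0807). DESeq2 called 2 members, both down (82 genes in all). Limma voom called 2 up and 3 down (930 genes in all), and so did edgeR on the CRS and PBS libraries alone (265 genes in all). Beside Cyp2a22, both of these called Cyp2j9 and Cyp2c37 down. The rises were Cyp3a44 (1.31, adjusted p = 0.0307) and Cyp2c67 (0.48, adjusted p = 0.028) under voom, and Cyp2d9 (0.79, adjusted p = 0.0191) and Cyp2c54 (0.50, adjusted p = 0.0451) in the fit of those libraries alone. With ACBP pumps, CRS+ACBP relative to ACBP livers gave 0 called members and 0% of all genes under edgeR, where 6 members and 7.32% of all genes had an unadjusted p under 0.05. Every CRS+ACBP library still lay below every ACBP library for Cyp2a22 (log2 fold change -1.51 ± 0.34, adjusted p = 0.328), and DESeq2 (adjusted p = 0.00679) and limma voom (adjusted p = 0.0419) each called it. With both pump contents weighted equally, the CRS effect was called down in 2 members and up in 0, beside 0.27% and 0.417% of all genes (0.687% in all). Limma voom called 6 down and 5 up (2027 genes in all), and the fit of the CRS+ACBP, CRS, ACBP and PBS libraries alone 6 down and 6 up (919 genes in all). The rises called by both were Cyp2d9, Cyp3a44, Cyp2c40 and Cyp2c67, and the falls called by both and not over all groups were Cyp3a59, Cyp2b13, Cyp3a25 and Cyp2c37. The smallest adjusted p among these in both fits was that of Cyp2d9 (log2 fold change 1.03 under voom, adjusted p = 0.00152; 1.03 in the smaller fit, adjusted p = 0.00352). The members called down over all groups were Cyp2a22 (log2 fold change -1.64 ± 0.24, adjusted p = 0.00108) and Cyp2j9 (log2 fold change -1.23 ± 0.26, adjusted p = 0.0211). The Cyp2j9 call was lost without CRS+ACBP replicate 1 or PBS replicate 5 (adjusted p between 0.051 and 0.057), and without the 7 libraries over the muscle limit or rich in brain transcripts (adjusted p = 0.164). This pooled value shares its libraries with the 2 comparisons it averages.

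Some members did not overlap between groups and did not pass the edgeR test over all groups. Cyp2d9 was higher in all CRS than all PBS libraries (log2 fold change 0.81 ± 0.44, adjusted p = 0.604) and in all CRS+ACBP than all ACBP libraries (log2 fold change 1.31 ± 0.45, adjusted p = 0.538), and Cyp2c40 likewise (log2 fold change 0.84 ± 0.44, adjusted p = 0.579; log2 fold change 0.71 ± 0.43, adjusted p = 0.735). For Cyp2c40 the separation of CRS+ACBP from ACBP libraries was narrow and depended on the scaling. CRS+ACBP replicate 5 had 4534 of 15376103 reads on genes and ACBP replicate 5 had 5004 of 16797443. Unique windows made up 39.7% of Cyp2c40. In total, 4 members lay wholly above and 2 wholly below PBS in CRS livers, beside 2.26% and 2.05% of all genes. In CRS+ACBP against ACBP livers these were 3 and 1, beside 0.718% and 1.12%. The interaction of CRS and ACBP was called in 0 members and 0% of all genes under edgeR, DESeq2 and limma voom called 0 members, and 1 member, Cyp2u1 (-0.87 ± 0.34, unadjusted p = 0.0152), had an unadjusted p under 0.05, beside 2.38% of all genes. Of the pathway genes, Cyp7b1, an oxysterol hydroxylase, rose with CRS over both pumps (17.9 ± 6.14 CPM in CRS+ACBP and CRS, 8.804 ± 2.85 CPM in ACBP and PBS livers, n = 10 each; log2 fold change 1.04 ± 0.22, edgeR adjusted p = 0.0253).

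With ACBP alone no member passed the test. In ACBP relative to PBS livers edgeR called 0 members and 0% of all genes, 3 members and 4.38% of all genes had an unadjusted p under 0.05, and DESeq2 and limma voom called 0 members each. The smallest p belonged to Cyp2a22, lower in all ACBP than all PBS libraries, the 1 member to lie wholly below (1.02% of all genes did, and 0.767% wholly above, with 0 members) (-0.84 ± 0.33, unadjusted p = 0.016, adjusted p = 0.999). In CRS+ACBP relative to CRS livers edgeR, DESeq2 and limma voom called 0 members, with 0% of all genes called by edgeR, and 0 members had an unadjusted p under 0.05, beside 2.87% of all genes. In CDDP+ACBP relative to ACBP livers, where no member was called, the 3 with an unadjusted p under 0.05 were Cyp2b9 (0.48 ± 0.20), Cyp3a59 (0.61 ± 0.28) and Cyp2u1 (-0.61 ± 0.24). There, Cyp2c44 was at -0.45 ± 0.31, Cyp1a2 at -0.02 ± 0.47, Cyp2a22 at 0.46 ± 0.33 and Cyp2d9 at 0.65 ± 0.44.

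Set against each other, both anorexia treatments under PBS pumps differed in 22 members. In CDDP relative to CRS livers 6 rose and 16 fell, beside 19.5% and 15.1% of all genes (34.6% in all). This comparison shares the CDDP libraries with CDDP relative to PBS. The falls were led by Cyp2c44 (log2 fold change -3.19 ± 0.33, adjusted p = 1.58e-07). Cyp3a44, a female-predominant member not called against PBS, was next, with 44.97, 54.02, 29.5, 19.9 and 17.2 CPM in CDDP+ACBP, 35.7, 8.58, 29.2, 11.4 and 2.74 in CDDP, 66.2, 75.7, 137, 40.04 and 108 in CRS and 24.9, 47.8, 34.05, 47.2 and 21.7 in PBS livers (log2 fold change -2.28 ± 0.50, adjusted p = 0.000842). All CDDP libraries lay below all CRS libraries for both. Members called down here and not against PBS were also Cyp2c69 (-2.22 ± 0.60), Cyp2c40 (-1.78 ± 0.45), Cyp2f2 (-1.14 ± 0.39) and Cyp2u1 (-1.01 ± 0.24). The Cyp2f2 call was lost without CDDP replicate 5 (adjusted p = 0.066).

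The other falls relative to CRS livers were Cyp2g1 (-2.21 ± 0.42), Cyp2c54 (-2.05 ± 0.29), Cyp2a4 (-1.94 ± 0.33), Cyp1a2 (-1.83 ± 0.48), Cyp2b13 (-1.39 ± 0.26), Cyp2d40 (-1.35 ± 0.22), Cyp2c67 (-1.15 ± 0.18), Cyp2a22 (-0.91 ± 0.33), Cyp2b9 (-0.68 ± 0.20) and Cyp2d22 (-0.41 ± 0.14). The Cyp2a22 call was lost without CDDP replicates 1, 3 or 4 or CRS replicate 1 (adjusted p between 0.066 and 0.159), and that of Cyp2d22 without CDDP replicates 2 or 4 or CRS replicates 2 or 4 (adjusted p between 0.055 and 0.0993). The rises were Cyp2d9 (2.13 ± 0.46), Cyp2c70 (1.35 ± 0.42), Cyp2t4 (1.29 ± 0.35), Cyp2c29 (1.14 ± 0.42), Cyp3a13 (1.08 ± 0.28) and Cyp2c39 (0.91 ± 0.24). Of these 6, Cyp3a13 was the one for which every CDDP library lay above every CRS library. Over the 46, 1 lay wholly above and 13 wholly below, beside 10.1% and 9.14% of all genes. Without CDDP replicate 5, Cyp2d9 was 1.14 (adjusted p = 0.0105), Cyp3a13 0.58 (adjusted p = 0.0345) and Cyp2t4 0.53 (adjusted p = 0.105). The Cyp2c70 call was lost without CDDP replicate 3 (adjusted p = 0.0507), and the Cyp2c29 call without CDDP replicates 1, 3 or 4 or CRS replicates 1, 2, 4 or 5 (adjusted p between 0.0506 and 0.0956). Cyp2j9, lower than PBS in both treatments, was not called here (0.19 ± 0.36). Fitted on these 10 libraries alone, 14 members and 3709 genes in all were called. The members lost were Cyp1a2, Cyp2a22, Cyp2c29, Cyp2c69, Cyp2c70, Cyp2d22, Cyp2f2 and Cyp2t4 (adjusted p between 0.0639 and 0.126). Limma voom did not call Cyp2d9 (adjusted p = 0.0783).

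Promoters were searched on both strands for short motifs in the 250 bases before the start. A promoter was at hand for 50 of the 58 members. The TATA box letters TATAAA occurred in 23 (46%) of the member promoters and in 12.97% of all 27025 promoters of that length, and in Cyp2a22 and Cyp2d9 they lay at 28 to 23 bases before the start, in Cyp2d9 on the other strand. The nuclear receptor letters AGGTCA occurred in 14 members (28%) and 13.8% of all promoters, and in Cyp2b13 they lay at 138 to 133 bases before the start. The C/EBP-type letters TTNCNNAA, where N is any base, occurred in 21 members (42%) and 36.9% of all promoters, and in Cyp2b13 they lay at 180 to 173 bases before the start.

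The STAT-type letters TTCNNNGAA occurred in 2 members (4%) and 7.18% of all promoters, the AhR core GCGTG in 8 (16%) and 28.2%, and the glucocorticoid-type letters AGAACA in 13 (26%) and 16.2%. Split by the CDDP comparison with PBS, TATAAA was in 6 of the 11 promoters of members that fell, 2 of the 7 of members that rose, 13 of the 22 of tested members not called and 2 of the 10 of members not tested. TTNCNNAA was in 6, 6, 6 and 3 of the same sets. No motif overlap was counted, and a match describes letters in this window only.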

How the data were processed

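Liver mRNA libraries were strand-specific per the labels. The authors deposited whole read counts per gene, made with HISAT2 2.2.1 on mm10 and HTSeq 2.0.3 per the submitters' processing notes. The annotation release is not given in the sources used here, nor is the strand setting. The 5 lines of read totals that name no gene were left out. Members and lists were chosen with earlier results of these data known. Counts of all 30 libraries were fitted in one model with 6 group coefficients in edgeR 4.0.16 (R 4.3.3): filterByExpr, TMM, quasi-likelihood F test, 24 residual degrees of freedom, Benjamini-Hochberg adjustment over 16304 genes. Standard errors come from the F statistic (size of the log2 fold change over the root of F). Alternatives used DESeq2 1.42.0, limma 3.58.1 (voom with quality weights), RLE scaling, glmTreat at a 1.5-fold change, other filters, fits of only the groups compared, and each library left out in turn; chosen after seeing the data, a muscle score as covariate and 7 libraries left out. The edgeR step was tested on simulated counts. RPKM uses GENCODE vM21 exon bases. Pairs of libraries of 1 group differed by more than sampling noise (chi-square per degree of freedom at least 21.1), so none was counted as a duplicate.

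Per subfamily, values in all 30 libraries are given for the member with the highest mean CPM. They are also given for the called member with the largest change in CDDP relative to PBS livers. Every other member called in the fit over all groups is named, with values of some groups only or with means. Cyp1b, Cyp2s and Cyp2w, whose means over all libraries were under 1 CPM, are given by range only. From each list with calls, up to 3 called genes with the smallest p were named. The result of 1 marker list is not reported here.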

Additional observations from a re-analysis of the deposited data

Results flagged for a closer look

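In 19 members with values given for every library, 114 groups of 5 were examined for a library far from the rest, and 12 were found; chance alone flags about 1 in 20 groups. In CDDP livers these were replicate 5 for Cyp3a13 (512 CPM, others 118 to 227), Cyp2t4 (48.2 CPM, others 7.26 to 13.3) and Cyp2d26 (1549 CPM, others 914 to 1070.1), and replicate 1 for Cyp2u1 (11.5 CPM, others 4.84 to 5.96). In CDDP+ACBP livers they were replicate 5 for Cyp2a5 (2459 CPM, others 801 to 1220.1), Cyp2b13 (457 CPM, others 163 to 245) and Cyp2t4 (11.02 CPM, others 5.92 to 7.13), and replicate 3 for Cyp2j9 (97.0 CPM, others 18.2 to 37.8). In CRS livers they were replicate 1 for Cyp2a22 (243 CPM, others 88.1 to 133) and Cyp2a5 (1740.1 CPM, others 786 to 948), and replicate 4 for Cyp2d26 (882 CPM, others 1046 to 1113). In PBS livers it was replicate 3 for Cyp1a2 (601 CPM, others 462 to 493). As CPM of all reads on genes, without the TMM factor, 5 of the 12 still stood apart: CDDP+ACBP replicate 5 and CRS replicate 1 for Cyp2a5, CDDP+ACBP replicate 3 for Cyp2j9, CDDP replicate 5 for Cyp2t4 and CDDP replicate 1 for Cyp2u1. On that scale CDDP replicate 5, whose factor was 0.701, had 1085 for Cyp2d26, inside the other CDDP libraries (888 to 1130.0), and 358 for Cyp3a13 (others 115 to 235). CRS replicate 1 was among the libraries rich in muscle transcripts, and the part of that in its values was not tested.

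The change with CDDP under ACBP pumps differed from that under PBS pumps, by the edgeR interaction test, in 14 members. Of all genes, 19.7% were called in this test, 8.38% positive and 11.3% negative. The log2 difference was positive for Cyp2a22 (3.15), Cyp2c44 (2.70), Cyp2b13 (1.98), Cyp2j9 (1.46), Cyp2a4 (1.44), Cyp2b9 (1.44), Cyp3a59 (1.38), Cyp2c54 (1.29), Cyp2c37 (1.20), Cyp2d40 (0.93) and Cyp2c67 (0.88). It was negative for Cyp2d9 (-2.29), Cyp2t4 (-1.50) and Cyp3a13 (-1.22). Under CDDP, Cdkn1a was at 5.12 to 63.2 CPM with ACBP pumps and at 154 to 456 CPM with PBS pumps; its part in the difference was not tested.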

How the results depend on the processing

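Followed singly under 39 alternatives were 85 member results, of which 80 were called in the fit over all groups and so could hardly gain a call. Of their 3315 values, 3128 kept their direction and side of the threshold, 185 kept the direction and lost the call, 2 gained a call and 0 reversed. Over all tested members, comparisons and alternatives, 112 calls were gained and 185 lost. Called members under glmTreat at 1.5-fold numbered 11 for CDDP vs PBS, 10 for CDDP+ACBP vs CDDP, 12 for CDDP vs CRS, 0 for CRS vs PBS, 1 for CRS over both pumps and 5 for the interaction of CDDP and ACBP. Over all genes the calls there were 2646, 1604, 1790, 5, 11 and 825. In the fit over all groups they were 6756, 5503, 5639, 23, 112 and 3216. DESeq2 called 2 in CRS vs PBS, 1 of them gained, and 1 in CRS+ACBP vs ACBP (82 and 20 genes in all). Voom called 5 in CRS vs PBS (4 gained), 1 in CRS+ACBP vs ACBP and 11 for CRS over both pumps (9 gained). Over all genes it called 930, 19 and 2027. Fits of only the groups compared called 14 in CDDP vs CRS, 10 in CDDP+ACBP vs CDDP, 5 in CRS vs PBS (4 gained), 12 for CRS over both pumps (10 gained) and 9 for the interaction with CDDP. Over all genes these fits called 3709, 2217, 265, 919 and 2425. Without the 7 libraries over the muscle limit or rich in brain transcripts, the interaction with CDDP was called in 6 members and CRS over both pumps in 1, while CDDP vs PBS gave 21, CDDP+ACBP vs CDDP 19 and CDDP vs CRS 17. Over all genes these counts were 1722, 30, 5994, 4835 and 4683. By design glmTreat asks for a larger change. The fits of only the groups compared hold fewer libraries and take the spread of each gene from those groups alone. Without CDDP replicate 5, CRS over both pumps was called in 3 members and 286 genes in all, against 2 and 112 with it. The causes of these differences were not tested. Leaving out each library in turn gave 18 to 26 in CDDP vs PBS, 17 to 21 in CDDP+ACBP vs CDDP, 20 to 23 in CDDP vs CRS, 0 to 2 in CRS vs PBS, 1 to 3 for CRS over both pumps, 11 to 15 for the interaction with CDDP, and 0 to 0 in the other 5 comparisons. Against CDDP, 17 members and 4581 genes in all were called without CDDP+ACBP replicate 4, the library with the lowest Cdkn1a of its group. No paired analysis was possible because the labels number the libraries 1 to 30 without pairing the groups. Members near the count filter, and paralogues with few unique bases, are measured least precisely.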
